A study of Mus musculus with 4 samples.

Results

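Granzymes, perforin and the other genes of the cytotoxic granule were followed in 4 RNA-seq libraries of mouse spleen T cells. The 9 genes were chosen by symbol (Gzma, Gzmb, Gzmc, Gzmk, Gzmm, Prf1, Srgn, Nkg7 and Fasl), and all 9 were found among the 31748 gene symbols of the count tables. By their labels the cells were CD4+ T cells with the TEa receptor transgene, whose receptor recognises a peptide of the I-E alpha chain presented by I-A of C57BL/6 mice. The 2 groups carry the genotype labels TEaWT (WT, 2 libraries) and TEaMthfd2 KO (KO, 2 libraries), and both share the transgene. Donor mice were 8 weeks old, and T cells were obtained by positive magnetic selection. In both groups they were then cultured for 3 days beside antigen-presenting spleen cells treated with mitomycin, which came from F1 (BALB/c x C57BL/6) animals of the same age and may still contribute RNA. The comparison asks what the loss of Mthfd2, an enzyme of the mitochondrial folate cycle, does to the granule genes of T cells that meet foreign tissue antigen. The labels do not give the deleted exons, a Cre driver, or say whether replicate libraries stem from different mice. P-values therefore rest on a spread between libraries that may be technical.

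Cytotoxic lymphocytes kill by releasing granules into the contact with a target cell. Perforin makes pores in the target's membrane, and granzymes, a family of serine proteases, enter and cut proteins of the target. Serglycin holds the granzymes in the granule, and Fas ligand on the cell surface triggers death through the receptor Fas. The programme is best known from CD8+ T cells and natural killer (NK) cells, and some activated CD4+ T cells also use it.

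The libraries held between 14191401 and 15955863 counts. Cd8a counts were between 3.10 and 4.00 times those of Cd4 in every library, against the label of CD4+ cells, so the values below may not stem from CD4+ T cells. The mean level of Mthfd2 itself was 280 ± 0.450 CPM (SD, n = 2) in WT and 237 ± 20.6 CPM (SD, n = 2) in KO, and it was not called (edgeR adjusted p = 0.324). CPM expresses a count relative to the scaled total of its library. A count over the whole gene does not check the loss of some exons, so directions rest on the labels KO and WT. The first principal component held 69.0% of the variance and separated the groups. Its WT values were negative, -65.1 for replicate 1 and -19.6 for replicate 2. Its KO values were positive, 43.8 and 40.9 in the same order. Along this component the WT pair was spread more widely than the KO pair. In these bulk libraries, fewer cells of a type and less RNA per cell cannot be told apart.

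The granzymes of the study lie in separate places of the genome. On GRCm38 (the mm10 build), Gzmb (chr14:56258838-56262260, minus strand) and Gzmc (chr14:56231441-56234656, minus strand) belong to a cluster of 7 granzyme genes that spans 144635 bases and holds no other protein-coding gene. Gzma (chr13:113093825-113100981) and Gzmk (chr13:113171608-113225908) are neighbours on the minus strand of chromosome 13. Gzmm (chr10:79689020-79695261, plus strand), Prf1 (chr10:61297833-61304680, plus strand) and Srgn (chr10:62493833-62527451, minus strand) lie on chromosome 10. Nkg7 (chr7:43437073-43438249, plus strand) and Fasl (chr1:161780689-161788495, minus strand) lie elsewhere. None of the 9 genes shares exon bases with another annotated gene in GENCODE M21.

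Promoter windows of RefSeq (GRCm38.p6) were found for all 9 genes and for the 5 other granzymes. Shown are the 250 bases before the annotated start of Gzmb, the most abundant granzyme here, and of its cluster neighbours Gzmc and Gzme. Gzmc and Gzme have similar upstream sequences but different counts, and the split of reads between them is uncertain. Also shown is Gzma, the granzyme with the largest difference between the groups. Each is written 5′ to 3′ on the gene's own strand. Capitals mark matches to the RUNX core TGTGGT (or ACCACA on the other strand) and, in Gzmb, to the AP-1 motif TGANTCA.
Gzmb (chr14:56262335-56262584, minus strand): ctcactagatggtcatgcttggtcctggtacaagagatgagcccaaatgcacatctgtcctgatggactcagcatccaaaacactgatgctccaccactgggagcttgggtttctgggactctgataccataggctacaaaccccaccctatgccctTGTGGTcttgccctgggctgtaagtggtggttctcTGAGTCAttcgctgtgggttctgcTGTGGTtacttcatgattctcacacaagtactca
Gzmc (chr14:56234658-56234907, minus strand): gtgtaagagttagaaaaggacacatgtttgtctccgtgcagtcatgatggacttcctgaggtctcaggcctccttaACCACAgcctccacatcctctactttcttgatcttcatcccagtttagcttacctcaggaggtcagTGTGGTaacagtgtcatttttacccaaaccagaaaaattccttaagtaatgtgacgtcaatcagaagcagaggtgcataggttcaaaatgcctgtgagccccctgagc
Gzme (chr14:56120626-56120875, minus strand): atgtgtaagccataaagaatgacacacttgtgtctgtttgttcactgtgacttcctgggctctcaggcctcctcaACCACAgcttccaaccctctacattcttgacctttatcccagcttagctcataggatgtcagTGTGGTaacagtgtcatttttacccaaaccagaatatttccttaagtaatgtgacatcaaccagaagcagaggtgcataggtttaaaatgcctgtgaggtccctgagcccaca
Gzma (chr13:113100982-113101231, minus strand): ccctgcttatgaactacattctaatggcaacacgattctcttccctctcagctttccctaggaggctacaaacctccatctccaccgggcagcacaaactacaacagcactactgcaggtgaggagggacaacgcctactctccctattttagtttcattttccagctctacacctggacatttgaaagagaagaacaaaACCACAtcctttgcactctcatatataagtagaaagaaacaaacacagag

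The upstream sequences of Gzmc and Gzme were identical at 81.8% of alignment columns, and those of Gzmd and Gzme at 94.8%. Gzmb and Gzmc were identical at 50.2%, about the value of unrelated pairs such as Gzma and Prf1 (48.8%). The longest stretch shared by the upstream sequences of Gzmc, Gzmd, Gzme, Gzmf and Gzmg was 20 bases long, began between 70 and 45 bases before the start, and was found in the promoter windows of these 5 genes and no other gene in the table.
Shared stretch: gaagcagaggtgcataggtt
Motifs were searched on both strands in windows of 300 bases, from 250 before to 50 after the start. The RUNX core was present in 7 of the 11 windows of the 9 genes (2 each for Srgn and Gzmm) and in 16.8% of all 32851 windows. The T-box motif GGTGTGA was found in 3 of the 11 windows (Gzmk, Gzmm and Nkg7) against 3.98% of all, the AP-1 motif in 1 (Gzmb) against 7.81%, and the STAT motif TTCNNNGAA in 3 (Gzmb, Gzmm and Nkg7) against 8.30%. Such matches describe the letters of the window and are not known binding sites.

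Gzmb, the granzyme that cuts after aspartate and activates caspases, was by far the most abundant member in all 4 libraries. It held between 94.1% and 98.3% of the counts of all granzymes, and ranked between 37 and 89 among all genes by count. Divided by exon length, its level was 812 CPM per kilobase in WT and 826 in KO libraries (means, n = 2 each). Srgn, the serglycin core protein, followed at 201 and 188 CPM per kilobase, and Nkg7, a granule membrane protein needed for full granule release, at 125 and 137. The ranges of these 3 genes over the 4 libraries did not overlap. Next came Prf1, the pore-forming perforin (19.1 to 40.6 CPM per kilobase over the libraries), Gzma, a granzyme that cuts after basic residues (8.44 to 60.1), Gzmc (5.06 to 23.0) and Fasl (6.62 to 9.97). The range of Prf1 lay above that of Fasl, and the other pairs of these 4 overlapped. Gzmm, which prefers methionine (0.505 to 1.41), and Gzmk, another protease that cuts after basic residues (0.0880 to 1.83), were near the limit of detection with at most 36 counts in a library, and their order cannot be told.

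**Figure D1:**
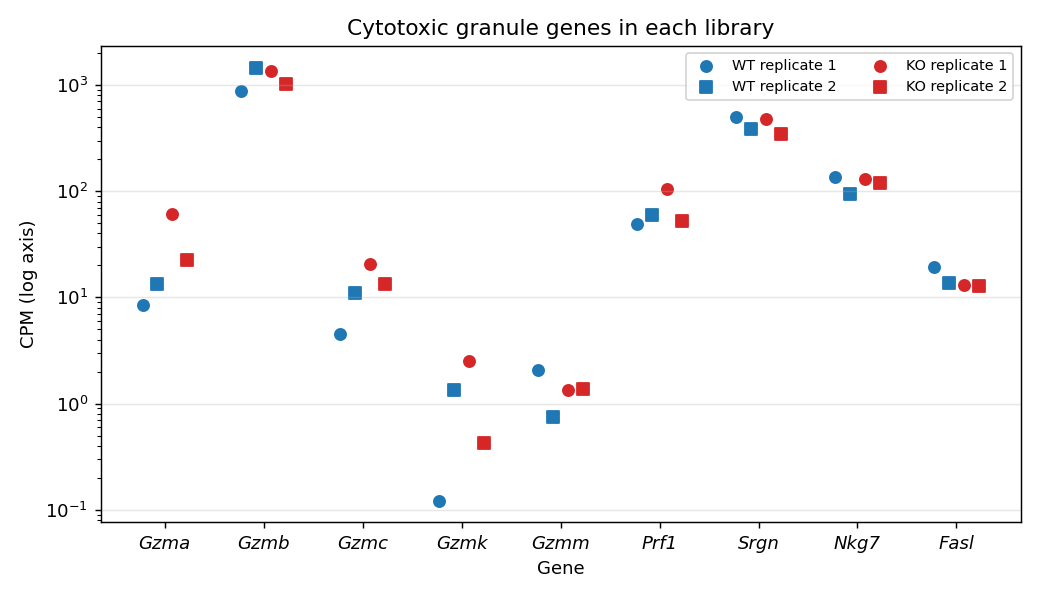
CPM of the 9 genes (log axis) in the 2 WT libraries (blue) and the 2 KO libraries (red), with circles for replicate 1 and squares for replicate 2 and 1 point per library. Gzmb lies between 873 and 1459.5 CPM with the groups interleaved, and Gzma lies higher in both KO libraries (22.7 and 60.5 CPM) than in both WT libraries (8.49 and 13.2 CPM).

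The groups were compared over 12752 genes by the quasi-likelihood test of edgeR, with p-values adjusted by Benjamini-Hochberg over all of them and a gene called at an adjusted p under 0.05. All 9 members passed the filter on low counts, and 0 of 9 were called, where 3.95% of all tested genes were called (2.39% higher and 1.56% lower). Without adjustment, p was under 0.05 for 2 members, Gzma and Gzmc, both with higher values in KO. The same was true of 3250 of the 12752 tested genes, 1626 with higher and 1624 with lower values. DESeq2 called 1 member, Gzma, where it called 811 genes higher and 753 lower over the whole table. It gave a p-value to 18347 genes, of which 6155 had no adjusted p. By limma-voom 0 members were called, against 376 genes higher and 217 lower over the whole table. The median log2 fold change (KO over WT) was 0.13 over the members, 6 of which were positive, and -0.0026 over all tested genes. Counts were also simulated with the means and dispersions of this comparison. There 27.6% of the 98 genes given a 2-fold change were called, and 77.3% of the 97 given a 4-fold change. The other 12301 genes tested in the simulation were left unchanged, whereas in the data 3250 genes had an unadjusted p under 0.05. Adjusted p-values depend on that share, so these rates hold for the simulated setting and may differ in the data.

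**Figure D2:**
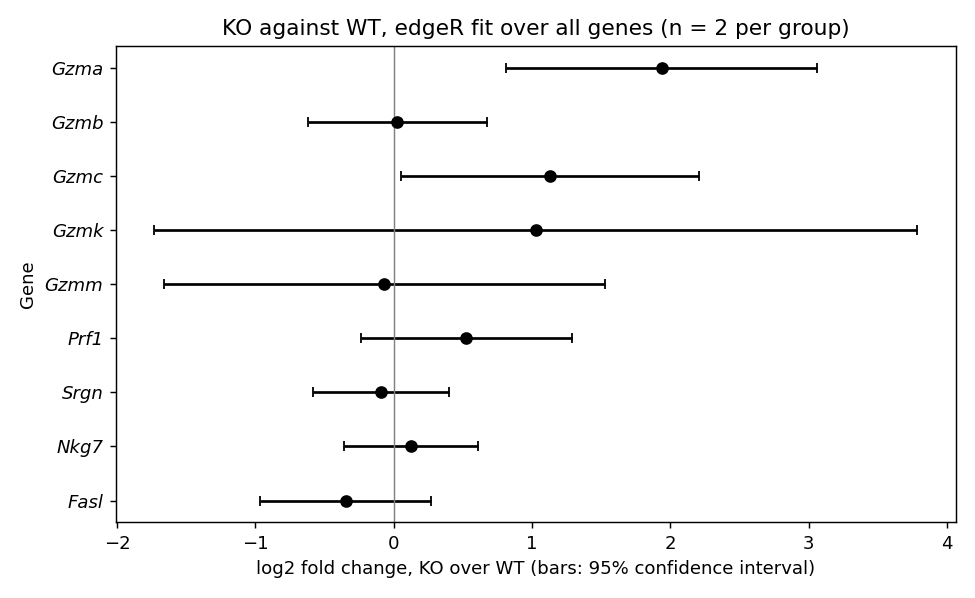
Log2 fold change of KO over WT for the 9 genes (points) with 95% confidence intervals (bars) from the edgeR fit, n = 2 libraries per group. The intervals of Gzma (0.81 to 3.06) and Gzmc (0.05 to 2.20) lie above 0 without adjustment for the number of genes tested, and those of the other 7 cross 0.

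Gzmb stood at 873 and 1459.5 CPM in the WT libraries and at 1359 and 1014 CPM in the KO libraries. Both KO values lay between the WT values. Its log2 fold change was 0.03 ± 0.27 (SE), with a 95% confidence interval of -0.62 to 0.67 (edgeR adjusted p = 0.968). The interval leaves room for a change of up to about that size in either direction.

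Gzma stood at 8.49 and 13.2 CPM in the WT libraries (139 and 196 counts) and at 60.5 and 22.7 CPM in the KO libraries (855 and 316 counts). Both KO values were above both WT values, and the KO libraries differed from each other by 2.67 times. The log2 fold change was 1.94 ± 0.47 (95% interval 0.81 to 3.06), and it missed the threshold in edgeR (adjusted p = 0.0677). DESeq2 called it (adjusted p = 0.000328), where it called 811 genes higher and 753 lower over the whole table. So did edgeR with no filter on low counts (adjusted p = 0.00619), where 737 genes were called higher and 682 lower. Both settings call more genes than the main fit, with 305 higher and 199 lower. Without WT replicate 2 the log2 fold change was 2.30. Without KO replicate 1, its highest library, the log2 fold change was 1.06 (adjusted p = 0.384). Over all alternatives the adjusted p ranged from 0.000328 to 0.384 and the direction was the same.

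Gzmc stood at 4.52 and 11.0 CPM in WT and at 20.6 and 13.3 CPM in KO libraries. The groups did not overlap, but WT replicate 2 and KO replicate 2 lay close together. The log2 fold change was 1.13 ± 0.45 (adjusted p = 0.179). It was 1.91 without WT replicate 2 and 0.63 without WT replicate 1. Apart from Gzmb, the other granzymes of the same cluster were at or near 0. Gzmn had 0 counts in every library, Gzmf had at most 2, and Gzmd, Gzme and Gzmg had 0 counts in both WT libraries. In KO replicates 1 and 2, Gzmd had 4 and 1 counts, Gzme 4 and 4, and Gzmg 6 and 0. A count of 0 allows up to 3 counts, between 0.188 and 0.211 CPM of the library totals. Gzmc, Gzmd, Gzme, Gzmf and Gzmg are alike in sequence, and the handling of reads that map to several places is not given in the sources used here. The split of reads among these genes is therefore uncertain.

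Gzmk had 2 and 20 counts in WT and 36 and 6 counts in KO libraries, so each group held a low and a high library. Its log2 fold change of 1.03 ± 1.16 had a 95% interval of -1.73 to 3.78 (adjusted p = 0.616). Gzmm had 34 and 11 counts in WT and 19 in each KO library (-0.07 ± 0.67, adjusted p = 0.965). With these few counts and this spread within each group, a difference of several fold in Gzmk could be missed.

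Prf1 stood at 49.4 and 59.8 CPM in WT and at 105 and 52.3 CPM in KO libraries. KO replicate 1 lay above the other 3 libraries, while KO replicate 2 lay between the WT values. The log2 fold change was 0.53 ± 0.32 (95% interval -0.24 to 1.29, adjusted p = 0.343), and without KO replicate 1 it was -0.06. Srgn stood at 496 and 387 CPM in WT and at 478 and 349 CPM in KO libraries. Its log2 fold change was -0.09 ± 0.21 (adjusted p = 0.816). Replicate 1 was the higher library in both groups, and the groups overlapped.

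Nkg7 stood at 135 and 93.9 CPM in WT and at 129 and 121 CPM in KO libraries, again overlapping (0.13 ± 0.20, 95% interval -0.36 to 0.61, adjusted p = 0.737). Fasl, the death ligand, was measured at 19.3 and 13.7 CPM in WT and at 13.1 and 12.8 CPM in KO libraries. Both KO values were below both WT values by a small margin, and the log2 fold change of -0.35 ± 0.26 was not called (95% interval -0.97 to 0.27, adjusted p = 0.439). Without WT replicate 1 it was -0.07. In all, 2 of the 9 members (Gzma and Gzmc) had both KO libraries above both WT libraries, as did 29.8% of all tested genes. Of the members 1 (Fasl) had both below, as did 30.1%. The 3 members without overlap compare with 59.9% of all tested genes.

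The KO libraries differed from each other in one direction across the members. Of the 9, 8 were higher in KO replicate 1 than in KO replicate 2, while 48.7% of all tested genes were. The ratio of KO replicate 1 to KO replicate 2 was 5.92 for Gzmk, 2.67 for Gzma, 2.00 for Prf1, 1.54 for Gzmc, 1.37 for Srgn and 1.34 for Gzmb, against 1.07 for Nkg7, 1.02 for Fasl and 0.986 for Gzmm. Between the WT libraries, Gzma, Gzmb, Gzmc, Gzmk and Prf1 were higher in replicate 2, and Gzmm, Srgn, Nkg7 and Fasl in replicate 1. Without KO replicate 1 the median log2 fold change of the members was -0.06 with 3 of 9 positive, and without WT replicate 1 it was 0.40 with 7 of 9 positive.

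**Figure D3:**
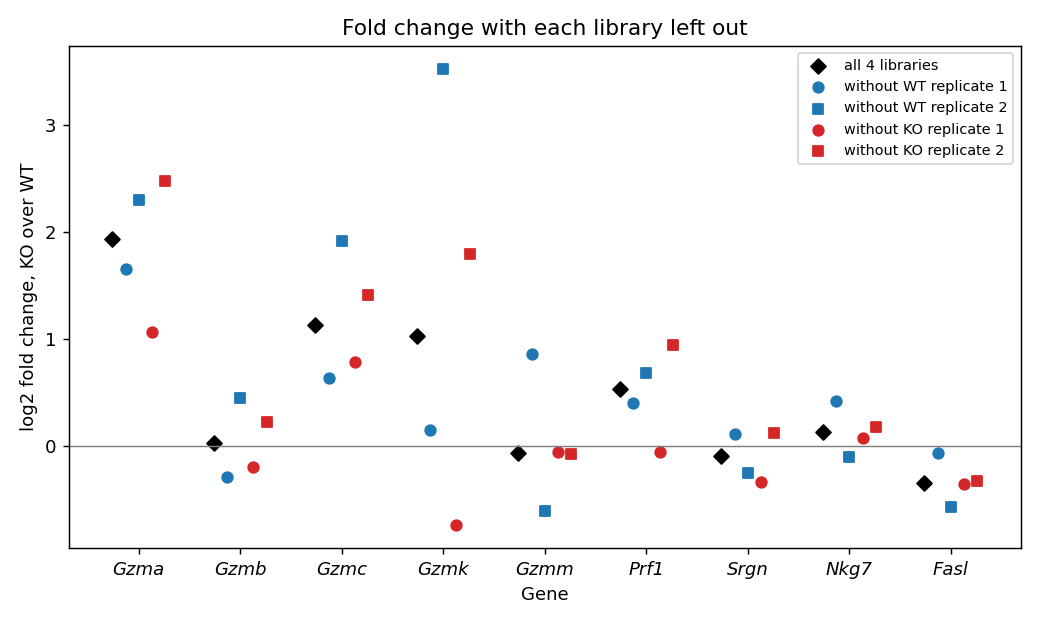
Log2 fold change of KO over WT for the 9 genes with all 4 libraries (black diamonds) and with each library left out in turn (blue for a WT library left out, red for a KO library, circles for replicate 1 and squares for replicate 2). Gzma stays above 0 throughout, between 1.06 and 2.48, Gzmc stays above 0 and Fasl below 0, and the other 6 genes lie on both sides of 0. The groups do not overlap for Gzma, Gzmc and Fasl, which leaves little room for a change of sign.

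Counts of Gzma, Gzmc and Prf1 were also set against those of Gzmb. Gzma and Gzmc are the members with both KO libraries above both WT libraries, and Gzmk and Gzmm were not set against Gzmb. For every 1000 counts of Gzmb there were 9.73 and 9.08 counts of Gzma in the WT libraries and 44.5 and 22.3 in the KO libraries. For Gzmc the corresponding values were 5.18 and 7.55 in WT against 15.1 and 13.1 in KO libraries. Prf1 stood at 56.6 and 41.0 counts per 1000 of Gzmb in WT and at 77.2 and 51.6 in KO libraries, which overlapped. These proportions do not depend on the scaling of the libraries, and no test was made of them. How many of all tested genes separate the groups when set against Gzmb was not counted.

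Markers of other cells moved in the same comparison. Of 4 T cell genes tested, 3 rose (Cd3e, Cd3d and Cd3g), and the summed level of the 4 was 569 and 640 CPM in WT and 1038 and 1018 CPM in KO libraries. Of 5 B cell genes, 3 fell (Cd79b, Pax5 and Cd22), and the sums over the 5 were 918 and 566 CPM in WT and 320.4 and 277 CPM in KO. Of the 3 CD8 T cell genes edgeR called 0 (2 higher at an unadjusted p under 0.05) and DESeq2 2 higher, with sums of 899 to 918 CPM in WT and 1190.4 to 1254 CPM in KO libraries. NK cell genes held 64.6 to 73.5 CPM in WT and 55.7 to 65.2 CPM in KO libraries, edgeR called 0 of 5 tested (unadjusted p under 0.05 for 1 lower) and DESeq2 0, and most of this was Eomes, which T cells also express. The NK-defining receptor gene Ncr1 had 45 and 40 counts in WT and 11 and 4 counts in KO libraries (log2 fold change -2.34). The other receptor genes tested in the list went the other way: Klrb1c (0.79), Klre1 (0.62) and Klri2 (0.54). With 3 of the 5 tested genes positive, the list had no common direction. Myeloid genes summed to at most 18.3 CPM, mast cell and basophil genes to at most 10.7 CPM and neutrophil genes to at most 9.53 CPM in a library, and Siglech of plasmacytoid dendritic cells had 58 and 10 counts in WT and 0 in both KO libraries. The part of these cells in the values of the granule genes was not tested.

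Set against T cell transcripts, of which 3 of 4 rose, several members stood lower in KO libraries than they did per library. Per 100 CPM of the 4 summed T cell genes, Gzmb stood at 153 and 228 CPM in WT and at 131 and 99.7 CPM in KO libraries, so that both KO values were below both WT values. The same held against Cd3e, Cd3d or Cd3g alone, but the groups overlapped against Cd247, Cd8a, Cd8b1 or Cd4. Annotated exons of Cd247, which is part of the sum, share 3007 bases with those of Pou2f1 on the other strand. The use of strand in counting is not given in the sources used here. Cd3e, Cd3d and Cd3g were themselves called higher in KO and are part of the sum. A gene with an unchanged level would therefore stand lower against them, and the 8 reference levels are not separate checks. How many of all tested genes show the same was not counted. Of the 8 reference levels, Srgn was lower in both KO libraries against 5 and Nkg7 against 4, as Gzmb was, and Prf1 and Gzmm against 1 each (Cd3g). Gzmk overlapped against all 8, and Gzmc was higher against 1 (Cd247). Gzma was higher in both KO libraries against 6, with overlap against Cd3d and Cd3g. Fasl was lower in both KO libraries against all 8. Whether any of these transcripts follows the number of T cells was not tested.

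Genes around the granule were read from 7 lists with 72 genes, of which 71 were in the tables and 66 were tested. Of these, 3 rose and 5 fell in KO libraries, 12.1% of the 66 where 3.95% of all tested genes were called. At an unadjusted p under 0.05, 14 of the 66 were higher and 20 lower, against 1626 and 1624 of the 12752 tested genes. DESeq2 called 7 of the pathway genes higher and 14 lower, against 811 and 753 genes over the whole table. The lists were chosen with earlier results known, among them those of Tnf, Lta, Irf4, Tcf7 and Stat4, so these shares are descriptions. All 8 calls were lost without KO replicate 1 and without KO replicate 2, fits in which 0 genes of the whole table were called (1566 and 2097 at an unadjusted p under 0.05).

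Among granule proteases and their storage and sorting proteins, edgeR called 1 of 12 higher and 0 lower, with a median log2 fold change of -0.50. Before adjustment, p was under 0.05 for 3 genes with higher and 6 with lower values. By DESeq2, 1 was called higher and 3 lower. Those 3, named here after their values were seen, were Ctsh (cathepsin H, -1.58 ± 0.37, adjusted p = 0.0610 by edgeR and 0.000633 by DESeq2), Calr (calreticulin, -0.58) and M6pr (a mannose 6-phosphate receptor that sorts lysosomal enzymes, -0.60). The gene that rose by edgeR was Ctsw, which encodes cathepsin W, a cysteine protease of cytotoxic lymphocytes. It stood at 25.8 and 34.9 CPM in WT and at 72.0 and 64.4 CPM in KO libraries, a log2 fold change of 1.17 ± 0.20 (adjusted p = 0.0400). Among 15 genes of granule transport and release edgeR called 0 (unadjusted p under 0.05 for 4 higher and 1 lower), limma-voom 0 and DESeq2 1 higher. The smallest p-values there belonged to the synaptotagmin-like genes Sytl2 (1.57 ± 0.41, adjusted p = 0.0800) and Sytl1 (1.05 ± 0.37, adjusted p = 0.139), whose proteins bind RAB27 on granules.

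Among 4 serpin genes of the granzyme inhibitor list, edgeR called 1 lower and 0 higher, and DESeq2 3 lower. The edgeR call was Serpinb9, the intracellular inhibitor of granzyme B, at 226 and 186 CPM in WT and 108 and 81.2 CPM in KO libraries. The log2 fold change was -1.13 ± 0.20 (adjusted p = 0.0400). Serpinb9b and Serpinb1a, named after their values were seen, had larger differences from fewer counts. Serpinb9b was counted 110 and 54 times in WT libraries, against 25 and 10 times in KO (-2.05 ± 0.59, adjusted p = 0.0951 by edgeR and 0.0332 by DESeq2). Serpinb1a was counted 286 and 137 times in WT libraries, against 89 and 34 times in KO (-1.61 ± 0.52, adjusted p = 0.119 by edgeR and 0.0279 by DESeq2). B cell genes fell in the same libraries, and the part of B cells in the levels of these serpins was not tested. Gzmb itself differed by less than the spread between libraries, as given above.

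Among 11 death ligands, receptors and targets, edgeR called 3 lower and 0 higher, and DESeq2 4 lower. Bid, a protein of the BCL2 family that granzyme B and caspase-8 cleave, stood at 68.5 and 66.7 CPM in WT and at 38.1 and 38.4 CPM in KO libraries. The log2 fold change was -0.82 ± 0.15 (adjusted p = 0.0414). Its annotated exons overlap those of Bcl2l13 on the other strand, and the use of strand in counting is not given in the sources used here. The death ligand genes Tnf and Lta fell as well. Tnf stood at 79.8 and 44.8 CPM in WT and at 16.1 and 18.2 CPM in KO libraries (-1.86, edgeR adjusted p = 0.0381). Lta stood at 98.3 and 83.3 CPM in WT and at 16.0 and 12.1 CPM in KO libraries (-2.69, edgeR adjusted p = 0.0176). The part of B cells, whose genes fell in the same libraries, in these levels was not tested. Without WT replicate 1 the adjusted p of Bid was 0.0502.

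Among 17 transcription factors of cytotoxic and related T cell programmes, edgeR called 2 higher and 1 lower, and DESeq2 4 higher and 2 lower. Tcf7, which encodes TCF-1 of naive and memory T cells, rose by 1.00 ± 0.17, and Stat4, which carries the IL-12 signal, by 0.82 ± 0.16, while Irf4, a factor induced through the T cell receptor, fell by 1.23 on the log2 scale. Without WT replicate 1 the adjusted p was 0.0527 for Tcf7 and 0.0649 for Stat4. Stat4 was also not called with upper quartile factors (adjusted p = 0.0543) or with library size only (0.0550). Of the 7 cytokine receptor genes edgeR called 0 (unadjusted p under 0.05 for 2 higher and 2 lower), limma-voom 1 higher and DESeq2 1 higher and 2 lower. The smallest p-values belonged to subunits of the IL-2 receptor, with opposite signs: for Il2rb the libraries held 465 and 749 CPM (WT) and 1323 and 1236 CPM (KO), a log2 fold change of 1.08 ± 0.24 (adjusted p = 0.0541). For Il2ra they held 949 and 1168 CPM (WT) and 673 and 564 CPM (KO), a log2 fold change of -0.78 ± 0.17 (adjusted p = 0.0568).

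The genes with a pattern most like that of Gzmb over the 4 libraries, by the root mean square difference of log2 CPM centred on each gene's mean, were Tbc1d19, Rsph3a, Adora2b, Slc9a5 and 3110009E18Rik, with differences between 0.0559 and 0.0605. Those most like Prf1 were Eif4e3, Entpd1, Cysltr2, Runx2 and Trp53inp2, between 0.0543 and 0.0623. These 5 were picked for their likeness to Prf1, so KO replicate 1 was the highest library for each of them as well. Runx2, for example, stood at 23.7 and 30.5 CPM in WT and 48.0 and 26.0 CPM in KO libraries. With 4 libraries and 12752 genes, likeness of this kind is a description only.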

How the data were processed

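RNA-seq of 4 libraries (2 WT, 2 KO) was analysed. The authors deposited raw read counts per gene symbol, 1 table per library. Subread 2.0.1, featureCounts and the mm10 build are named in the submitters' processing notes; settings of alignment, annotation, strand and multi-mapping were not given in the sources used here. The analysis used edgeR 4.0.16 under R 4.3.3: filterByExpr (minimum count 10, minimum total 15), TMM, the quasi-likelihood test of KO against WT without covariates, and Benjamini-Hochberg adjustment over 12752 genes. SE is the absolute log2 fold change divided by the square root of F, and 95% intervals use the test's degrees of freedom. The fit was tested on simulated data. Log2 CPM used a prior count of 2, and CPM per kilobase the union of GENCODE M21 exons. Alternatives were other scalings, no filter, DESeq2 1.42.0, limma-voom (limma 3.58.1), a replicate block and leaving out each library. The chi-square per degree of freedom was 37.4 between the WT and 15.2 between the KO libraries, so neither pair looked like 1 library deposited again. Promoters were aligned with Biopython 1.88.

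The members and lists were chosen with earlier results of these data known. Named were all members and other granzymes, pathway genes called, and in lists without a call the 2 with the smallest p, plus the 5 genes most like Gzmb and Prf1. Vamp7 and Trac were not matched in the tables, and 1 gene of the B cell list is not reported here and was left out of its counts and sums.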

Additional observations from a re-analysis of the deposited data

How the results depend on the processing

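With 2 libraries per group, single libraries decide many values. Members called higher were 0 with all libraries by edgeR, 1 with no filter on low counts, 1 by DESeq2, and 0 to 2 with 1 library left out; members called lower were 0 in every alternative run. Genes called higher and lower over the whole table were 305 and 199, 737 and 682 with no filter, 811 and 753 by DESeq2, 0 to 1423 and 0 to 1101 with 1 library left out, and 122 lower with upper quartile factors. Pathway genes called higher and lower were 3 and 5, 6 and 12 with no filter, 7 and 14 by DESeq2, and 0 to 15 and 0 to 17 with 1 library left out. Replicate numbers are shared between the groups in the labels, but same-numbered libraries deviated together only weakly (correlation 0.04 over genes). With the replicate number as a block, 488 genes were called higher and 401 lower, 5 and 9 of them pathway genes, and 0 members. The cause of these shifts was not tested. Of the 9 members, Gzma, Gzmc and Fasl kept their sign in all 11 alternatives. These are the members whose groups did not overlap, as in 59.9% of all tested genes, so leaving out a library could hardly change their sign. How many of all genes kept their sign was not counted.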
